A study of Drosophila melanogaster with 58 samples.

Results

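The wing of the late larva and the wing of the 18 h pupa both hold dividing cells, and gene expression was compared between these stages over all genes. The comparison used 4 of the 58 samples of the series, which were chosen by their labels alone: 2 RNA libraries of wings at 18 h after puparium formation (APF) and 2 RNA libraries of wings of late wandering larvae of the last instar (L3). All 4 came from female Drosophila melanogaster with the genotype label wildtype, with no transgene or treatment, and were made from dissected wings taken up in Trizol. The labels do not say how many wings went into a library or whether replicates came from separate cultures, so p-values measure only the spread between these libraries, which may be technical. All 12 wild-type RNA libraries (L3 and 6, 18, 24, 36 and 44 h APF) were fitted together to share 1 estimate of the spread, and the contrast of 18 h with L3 was taken from that fit. The other 12 RNA libraries and the 34 FAIRE (open chromatin) samples of the series were not analysed here.

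The larval wing imaginal disc is a folded epithelial sac that grows by cell division. It contains the future wing blade, hinge and body wall (notum), a thin peripodial layer, and the myoblasts and tracheal branches attached to it. Metamorphosis is driven by pulses of the steroid ecdysone, which acts through the receptor EcR and its partner Usp. In the prepupa the disc turns inside out and becomes a 2-layered wing covered by pupal cuticle. Most wing cells divide again in the pupa, and the hairs and the adult cuticle are made only after division has ended.

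Of the 17559 genes listed in each library, 8669 passed the filter on low counts and were tested. Genes received 6699651 and 3278781 counts in the 18 h libraries and 7396808 and 2502950 counts in the L3 libraries. A floor of 3 counts equalled 0.356 and 0.77 CPM (counts scaled to library size after TMM normalization) in the 18 h libraries and 0.328 and 0.871 CPM in the L3 libraries, which covers counting error only. Non-unique alignments numbered 49.7 and 87.1 per 100 gene counts at 18 h, against 146 and 92.8 in L3. Replicates correlated across genes with Pearson's r of log2 CPM of 0.984 at 18 h and 0.989 in L3. The wing selector vestigial (vg) was present in every library, with 167 and 223 CPM at 18 h, against 288 and 169 CPM in L3. The transcript of roX1, which coats the male X chromosome, was found in libraries labelled female, with 103 and 49.3 CPM at 18 h, against 194 and 9.0 CPM in L3, so that L3 library 1 stood apart from L3 library 2, and the part of male tissue in any result was not tested.

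Markers of other tissues differed between the stages. The 11 fat body markers summed to 175 and 112 CPM at 18 h, against 6.77 and 7.26 CPM in L3. Of the 8 that could be tested, 7 were called higher at 18 h (87.5%, against 10.4% of all genes tested). Neuron markers summed to 550 and 584 CPM at 18 h, against 371 and 280 CPM in L3. Glia markers summed to 410 and 351 CPM at 18 h, against 281 and 279 CPM in L3, and 1 defining glia marker had no count in L3. In the other direction, the 17 notum and peripodial markers summed to 1491 and 2149 CPM at 18 h, against 4030 and 2838 CPM in L3. Most of each sum came from the marker hth, which had 1308 and 1949 CPM at 18 h, against 3322 and 2210 CPM in L3. By itself hth was not called (log2 fold change -0.76). Hemocyte markers summed to 158 and 118 CPM at 18 h, against 142 and 153 CPM in L3. In bulk tissue, fewer cells of a type and less RNA per cell cannot be told apart.

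**Figure D1:**
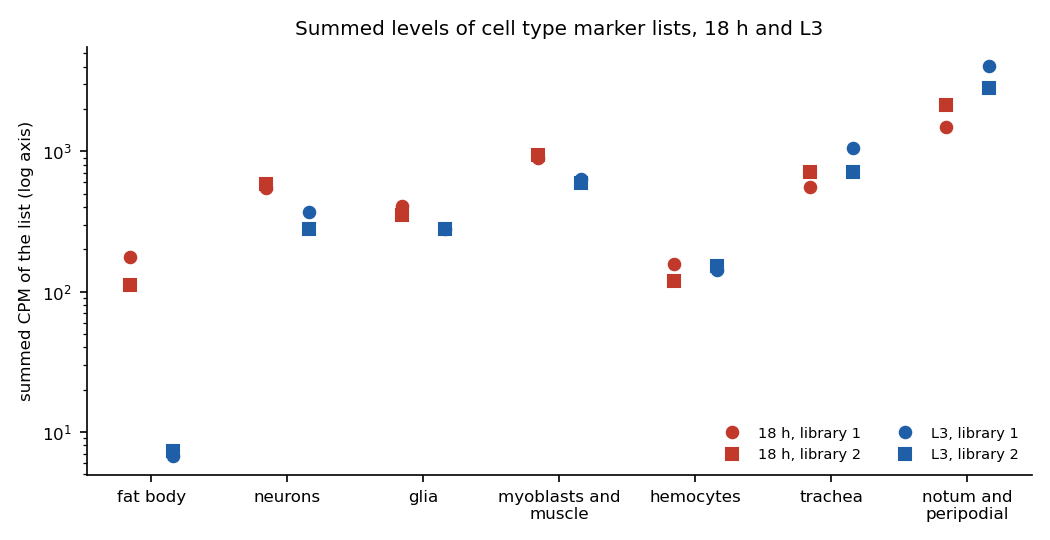
Summed level (CPM, log axis) of each list of cell type markers in every library, with 18 h left of L3 and the symbol giving the library number. Fat body markers sit at 112 and 175 CPM at 18 h and at 6.77 and 7.26 CPM in L3. Notum and peripodial markers lie lower at 18 h, and most of their sum is hth.

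A gene was called when its adjusted p (edgeR's quasi-likelihood F-test, Benjamini-Hochberg over all 8669 genes) was under 0.05 and its log2 fold change, 18 h over L3, was above 1 or below -1. By this rule 1675 genes (19.3% of those tested) were called, 898 higher (10.4%) and 777 lower (8.96%) at 18 h. The libraries of the stages did not overlap for any of the 777 lower genes and for 897 of the 898 higher genes. The call itself favours such separation, so it adds no support, and the share over all genes tested was not counted. Larger fitted changes were more often upward, with 437 called genes above 3 and 92 below -3 on the log2 scale. No count in either L3 library was found for 277 tested genes, and none in either 18 h library for 76. Fitted changes of such genes are not bounds, and the 437 and 92 were not recounted at a bound. The whole 95% interval of the log2 fold change lay between -1 and 1 for 3480 genes (40.1%), and the median over all genes was 0.05. The number called dropped to 976 without 18 h library 1 and to 861 without L3 library 1, the deeper library of each stage.

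**Figure D2:**
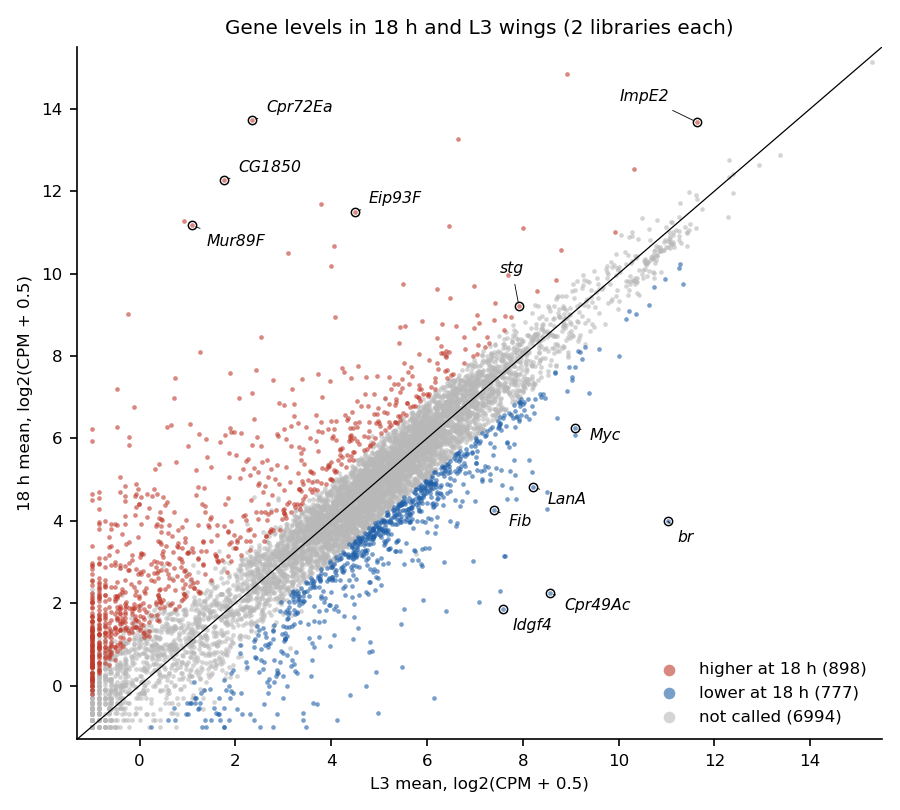
Mean level of each tested gene at 18 h (vertical axis) and in L3 (horizontal axis), both as log2(CPM + 0.5) over 2 libraries, with the line of equal levels. Called genes are coloured by direction (898 higher and 777 lower at 18 h), and the circled genes are described in the text.

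Most core regulators of the cell cycle were not called between the pupal and the larval wing, while the wider list of cell cycle genes leaned towards lower levels at 18 h. In the study's own cell cycle list, 285 of 291 genes were tested. Of these, 125 (43.9%, against 40.1% of all genes) had a whole 95% interval within 1 log2 unit of no change, 2 were called higher (0.702%, against the 10.4% background) and 52 were called lower (18.2%, against the 8.96% background). The list's median log2 fold change was -0.40, beside 0.05 over all genes. The count of lower genes was 19 without 18 h library 1, 18 without L3 library 1 and 33 without L3 library 2.

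Most cyclins and their kinases were not called. CycB, the mitotic B-type cyclin, had 206 and 186 CPM at 18 h, against 173 and 178 CPM in L3 (log2 fold change 0.16 ± 0.29, standard error, with a 95% interval of -0.47 to 0.79). CycA, the A-type cyclin needed for mitosis, had 237 and 228 CPM at 18 h, against 173 and 170.4 CPM in L3, with an interval of 0.04 to 0.83. Cdk1, the mitotic kinase, had 136 and 175 CPM at 18 h, against 129 and 110.03 CPM in L3, with an interval of -0.09 to 0.83. For these 3 mitotic regulators the interval excludes a change of 1 log2 unit in either direction. Among G1 regulators, CycD had 53.4 and 53.1 CPM at 18 h, against 45.5 and 55.2 CPM in L3, with an interval of -0.38 to 0.55. Its kinase partner Cdk4 had 86.6 and 83.7 CPM at 18 h, against 75.8 and 64.5 CPM in L3, with an interval of -0.21 to 0.77. CycE, which starts S phase, had 20.1 and 20.8 CPM at 18 h, against 38.4 and 30.2 CPM in L3, lower at 18 h by less than the fold threshold (log2 fold change -0.76, adjusted p = 0.018). The Cdk inhibitor dacapo (dap) had 96.3 and 98.6 CPM at 18 h, against 67.5 and 53.4 CPM in L3, also short of the threshold in the upward direction (log2 fold change 0.68, adjusted p = 0.046).

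The 2 called regulators of this group moved in opposite directions. string (stg, FBgn0003525, 3R:29251826-29255800, dm6), the Cdc25 phosphatase that triggers mitosis, was higher at 18 h, with 564 and 621 CPM at 18 h, against 303 and 181 CPM in L3 (log2 fold change 1.29 ± 0.33, adjusted p = 0.012). Rbf, the retinoblastoma protein that holds E2F in check, was lower, with 25.6 and 26.7 CPM at 18 h, against 66.2 and 64.5 CPM in L3 (log2 fold change -1.32 ± 0.28, adjusted p = 0.0049). In all, 1 of 13 G1/S genes fell (Rbf, 7.69%, against 8.96% of all genes tested) and none was called higher. Of 17 G2/M genes, 1 rose (stg, 5.88%, against 10.4% of all genes tested) and none fell. The whole interval lay within 1 log2 unit for 6 of the 13 G1/S genes and 10 of the 17 G2/M genes, beside 40.1% of all genes tested. The uncalled G1/S genes E2f1 (interval -1.12 to 0.08) and Cdk2 (interval -0.56 to 1.003) were not among the 6. The call of stg was lost without either 18 h library or without L3 library 2, and that of Rbf without 18 h library 1. The other higher gene of the study's list was pch2, a meiotic checkpoint ATPase, with 154 and 196 CPM at 18 h, against 79.9 and 90.6 CPM in L3 (log2 fold change 1.04 ± 0.21, adjusted p = 0.0036), whose call was lost without 18 h library 2 or L3 library 1 and with scaling by library totals.

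Among DNA replication genes, 6 of 41 fell (14.6%, against 8.96% of all genes tested), none was called higher and the median was -0.41. PCNA, the sliding clamp, had 179.7 and 269.6 CPM at 18 h, against 215 and 200.3 CPM in L3, with an interval of -0.60 to 0.82. RnrL, the large subunit of ribonucleotide reductase, had 110.3 and 142 CPM at 18 h, against 120.4 and 125 CPM in L3, with an interval of -0.44 to 0.53. For both, the interval lies within 1 log2 unit of no change. Caf1-180, the large subunit of a chromatin assembly factor that acts behind the fork, was lower, with 28 and 45.7 CPM at 18 h, against 168 and 96.1 CPM in L3 (log2 fold change -1.87 ± 0.36, adjusted p = 0.0027). Mcm6, a subunit of the replicative helicase, had 36.8 and 30.04 CPM at 18 h, against 81.9 and 81.9 CPM in L3 (log2 fold change -1.29 ± 0.32, adjusted p = 0.011). Cdc45, a cofactor of that helicase, had 13.6 and 15.9 CPM at 18 h, against 30.1 and 29 CPM in L3 (log2 fold change -1.01 ± 0.23, adjusted p = 0.0063). The helicase subunits Mcm2 (47.6 and 41.1 CPM at 18 h, against 65.1 and 62.7 CPM in L3) and Mcm5 (44.6 and 48.8 CPM at 18 h, against 63.5 and 60.7 CPM in L3) were not called. The 6 calls were not stable: 0 were left without 18 h library 1, 3 without 18 h library 2, 1 without L3 library 1 and 2 without L3 library 2, and DESeq2 called 3.

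Replication genes are known targets of E2F, which binds sites close to the gene start. The promoters (250 bases before to 50 after the annotated start, Release 6 genome, which is dm6) were searched on both strands for TTTCGCGC, TTTGGCGC, TTTCCCGC, TTTGGCGG and TTTCCCGG, and a promoter with several or overlapping matches was counted once. At least 1 match was present in 20 of 41 replication genes (48.8%), in 49 of the 279 cell cycle genes with a promoter (17.6%) and in 697 of 8460 promoters of all tested genes (8.24%). Cell cycle genes that fell held a match in 7 of 49 promoters (14.3%), and cell cycle genes that were not called held a match in 41 of 228 (17.98%). The matches of 3 called and 3 uncalled genes, chosen after their values were seen, are shown in the direction of the gene with the match in capitals, to set like letters beside unlike results.
stg: aagctcgcGCGCCAAAatcagtgg
Mcm6: agaaaaagGCGCCAAAaccgagca
Cdc45: gccagctgTTTCCCGCgtttttga
RnrL: gactttaaTTTGGCGCctttttgt
Mcm2: gcaaacatTTTCCCGCgcattt
Mcm5: ccggtaatTTTGGCGGcaaaatat
These stretches lie at chr3R:29255798-29255821 on the minus strand (stg), chrX:6674392-6674415 on the plus strand (Mcm6), chrX:1030536-1030559 on the minus strand (Cdc45), chr2L:10327926-10327949 on the minus strand (RnrL), chr3R:8264998-8265019 on the plus strand (Mcm2) and chr3R:10788544-10788567 on the plus strand (Mcm5). Counted from 0 at the annotated start, the match spans -13 to -6 in stg, 13 to 20 in Mcm6, 5 to 12 in Cdc45, 2 to 9 in RnrL, 36 to 43 in Mcm2 and 28 to 35 in Mcm5, and in stg and Mcm6 it is read from the other strand. The letters TTTGGCGC stand near the start of stg, Mcm6 and RnrL, of which stg was higher, Mcm6 lower and RnrL uncalled at 18 h. A match is a description of the letters and does not show a bound site.

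Mitotic structure genes were mostly at like levels, with 30 of 42 kinetochore, spindle and cytokinesis genes inside 1 log2 unit and a median of 0.17. Of all genes tested, 40.1% were inside 1 log2 unit. In this group 4.76% fell, against 8.96% of all genes tested. BubR1, a spindle checkpoint kinase, had 68.6 and 63.9 CPM at 18 h, against 59.2 and 54.9 CPM in L3, with an interval of -0.31 to 0.74. The 2 that fell were Incenp, the scaffold of the chromosomal passenger complex, with 35.9 and 48 CPM at 18 h, against 113 and 105 CPM in L3 (log2 fold change -1.38 ± 0.30, adjusted p = 0.0054), and feo, which bundles the central spindle, with 44.6 and 52.9 CPM at 18 h, against 122 and 106 CPM in L3 (log2 fold change -1.23 ± 0.31, adjusted p = 0.011). Neither was called without 18 h library 1 or without L3 library 1. Of the 52 lower genes of the study's list, 39 were in none of 5 functional lists of cell cycle or ribosome biogenesis genes. The same held for 208 of all 285 tested genes of the study's list, a like share. Absence from these short lists does not place a gene outside the machines. Of the other lower genes, 6 were ribosome biogenesis genes (all 6 that the study's list shares with that group), 4 were replication genes, 2 were mitotic structure genes and 1 was Rbf. By size, the lower genes of the study's list were led by Pop1, an RNase P and MRP subunit, with 0.949 and 0.513 CPM at 18 h, against 9.39 and 9.0 CPM in L3 (log2 fold change -3.5 ± 0.57, adjusted p = 0.00084), and by Nop60B, the pseudouridine synthase dyskerin, with 54.8 and 80.4 CPM at 18 h, against 636 and 459.9 CPM in L3 (log2 fold change -3.03 ± 0.39, adjusted p = 0.00018). The DNA repair gene spn-D had 0.356 and 0.513 CPM at 18 h, against 2.84 and 3.19 CPM in L3 (log2 fold change -2.79 ± 0.62, adjusted p = 0.006). The tRNA dihydrouridine synthase Dus2 had 1.66 and 1.54 CPM at 18 h, against 7.65 and 7.55 CPM in L3 (log2 fold change -2.22 ± 0.64, adjusted p = 0.022), and both lost their call when any 1 of the 4 libraries was left out.

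**Figure D3:**
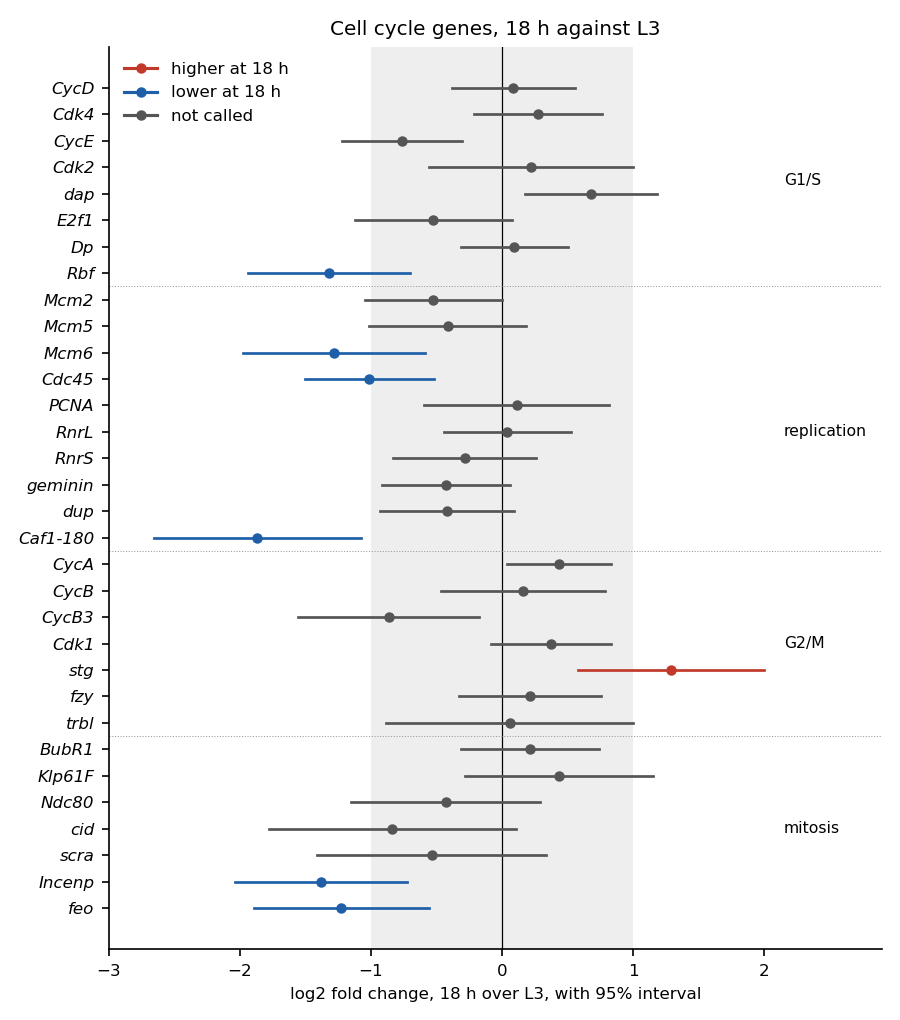
Log2 fold change (18 h over L3) with its 95% interval for cell cycle genes in 4 groups. The band spans -1 to 1, the points of CycA, CycB, Cdk1, CycD and Cdk4 have their whole interval inside it, and stg is the only one drawn that was called higher.

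The 6 h and later stages set these levels in context. The mean was below both the 18 h and the L3 mean in 220 of 285 cell cycle genes at 6 h (77.2%, against 37.1% of all genes), 265 at 24 h (93.0%, against 33.0%), 273 at 36 h (95.8%, against 40.3%) and 268 at 44 h (94.04%, against 41.0%). CycB had 79.8 and 35.4 CPM at 6 h, and 34.8 and 42.4 CPM at 24 h. PCNA had 97.8 and 61.3 CPM at 6 h, and 18.4 and 21.2 CPM at 24 h. At each of the other 4 stages, most of this list thus lay below its 18 h and L3 means. At 24 h stg, with 870 and 956 CPM, was above both, and its means at 6 h, 36 h and 44 h were below both.

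The largest rises were in genes close to silent in the larval wing. Cpr72Ea (FBgn0036617, 3L:16362603-16363750, dm6), a cuticle protein of the chitin-binding Cpr family, had 11621 and 15492 CPM at 18 h, against 6.23 and 2.9 CPM in L3 (log2 fold change 11.43 ± 0.91, adjusted p = 3.6e-06). Mur89F, a mucin-related gene, had 2845 and 1762 CPM at 18 h, against 1.53 and 1.74 CPM in L3 (log2 fold change 10.47 ± 0.57, adjusted p = 5.2e-07). Jhbp7, which carries a juvenile hormone binding protein domain by its name, had 355 and 682 CPM at 18 h, against 0.109 and 0.581 CPM in L3, with 3 counts in all in L3 and a ratio of 1926 (counting interval 659 to 9341). CG1850 had 3892 and 6016 CPM at 18 h, against 3.17 and 2.61 CPM in L3 (log2 fold change 10.7 ± 0.75, adjusted p = 1.5e-06). CG15213 had 1996 and 2979.9 CPM at 18 h, against 1.64 and 1.16 CPM in L3 (log2 fold change 10.69 ± 0.79, adjusted p = 2.0e-06). All 5 were under 7 CPM in both L3 libraries. A further 4 of the 10 largest rises had no count in either L3 library, which against a floor of 3 counts per library makes CG13722 at least 124-fold higher, CG7365 at least 100.57-fold higher, the flight muscle actin Act88F at least 40.85-fold higher and CG15269 at least 37.289-fold higher. Act88F lost its call without L3 library 1. Among the largest falls, fru, a BTB factor best known from sex determination, had 3.08 and 5.65 CPM at 18 h, against 245 and 123 CPM in L3 (log2 fold change -5.47 ± 0.75, adjusted p = 0.00024). At 36 h fru had 1915 and 2962 CPM, above its L3 level. CG15282 had 0.712 and 1.03 CPM at 18 h, against 44 and 43.8 CPM in L3 (log2 fold change -5.7 ± 0.53, adjusted p = 1.1e-05). The gene FBgn0029584, for which the references used here give no symbol, had 0.356 and 0.257 CPM at 18 h, against 85.1 and 56.6 CPM in L3 (log2 fold change -7.68 ± 0.56, adjusted p = 1.8e-06).

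Ecdysone pathway genes split into a group that was higher in L3 than at 18 h and a group that was higher at 18 h than in L3. Of 27 tested, 4 rose and 9 fell (14.8% and 33.3%, against 10.4% higher and 8.96% lower of all genes tested), with a median of -0.60. br, the BTB zinc finger factor that marks the pupal switch, had 8.9 and 21.8 CPM at 18 h, against 2392 and 1788 CPM in L3 (log2 fold change -7.13 ± 0.49, adjusted p = 1.3e-06). Hr4, a nuclear receptor of the ecdysone cascade, had 5.93 and 10.8 CPM at 18 h, against 187 and 202 CPM in L3 (log2 fold change -4.6 ± 0.59, adjusted p = 0.00016). The receptor Hr3, an ecdysone early-late gene, had 0.475 and 0.513 CPM at 18 h, against 5.68 and 10.2 CPM in L3 (log2 fold change -3.87 ± 0.55, adjusted p = 0.00033), although 82.7% of its exons overlap another gene on the same strand. Eip78C, another early-late receptor, had 17.1 and 15.1 CPM at 18 h, against 72 and 63.3 CPM in L3 (log2 fold change -2.06 ± 0.25, adjusted p = 9.5e-05). svp, a COUP-family receptor, had 3.56 and 7.44 CPM at 18 h, against 22.4 and 22.6 CPM in L3 (log2 fold change -2.13 ± 0.35, adjusted p = 0.00086). The libraries of the stages did not overlap for any of these receptors, as for nearly all called genes. Lower at 18 h did not mean highest in L3. At 36 h Hr3 (156 and 175.5 CPM), Eip78C (601 and 847 CPM) and svp (30.8 and 51.4 CPM) were above their L3 levels. At that stage br, with 6.37 and 8.31 CPM, was below its L3 level. Blimp-1, a repressor that times the prepupa, had 45.7 and 27.7 CPM at 18 h, against 135 and 142 CPM in L3 (log2 fold change -1.9 ± 0.39, adjusted p = 0.0039) and lost its call without 18 h library 2. Chosen after its values were seen, Kr-h1, which relays juvenile hormone, had no count at 18 h, against 66 and 19 counts in L3 (adjusted p = 0.00078).

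In the pupal wing, Eip93F (E93; FBgn0264490, 3R:21949114-22014539, dm6), a factor that directs adult fates late in metamorphosis, had 2789 and 3010.4 CPM at 18 h, against 33.7 and 10.2 CPM in L3 (log2 fold change 6.99 ± 0.54, adjusted p = 2.8e-06). EcR, the receptor itself, had 221 and 186 CPM at 18 h, against 84.9 and 63.6 CPM in L3 (log2 fold change 1.45 ± 0.22, adjusted p = 0.00046), while its partner usp had 25.9 and 22.6 CPM at 18 h, against 40.5 and 32.8 CPM in L3 and was not called. Cyp18a1, which inactivates ecdysone, had 9.14 and 7.44 CPM at 18 h, against 2.73 and 2.32 CPM in L3 (log2 fold change 1.69 ± 0.34, adjusted p = 0.0034). Eip74EF, an ETS early gene, had 98.6 and 85.7 CPM at 18 h, against 43.3 and 39.8 CPM in L3 (log2 fold change 1.15 ± 0.28, adjusted p = 0.01) and lost its call when any library but 18 h library 2 was left out. The prepupal competence factor ftz-f1 (19.5 and 21.3 CPM at 18 h, against 15.9 and 9.0 CPM in L3) and the early gene Eip75B (127 and 98.1 CPM at 18 h, against 201 and 154 CPM in L3) were not called. Temporal identity factors, which mark developmental age, include br and Eip93F, so they are not a separate set. Among them chinmo, a larval factor that opposes differentiation, had 5.81 and 9.76 CPM at 18 h, against 68.8 and 34 CPM in L3 (log2 fold change -2.8 ± 0.36, adjusted p = 0.00017). ab, a BTB factor of vein and neuron shape, had 20.2 and 34.7 CPM at 18 h, against 258 and 169.6 CPM in L3 (log2 fold change -2.99 ± 0.38, adjusted p = 0.00015). Of 8 such genes, br and Eip93F included, 3 rose and 3 fell (37.5% each, against 10.4% higher and 8.96% lower of all genes tested). The rise of ken, a BCL6-like repressor, with 45.8 and 36.5 CPM at 18 h, against 20.1 and 16 CPM in L3 (log2 fold change 1.18 ± 0.22, adjusted p = 0.0019), was lost without 18 h library 1, which left 1 of the 3 rises.

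Known ecdysone effector genes changed in both directions, with 5 of 15 higher and 4 lower (33.3% and 26.7%, against 10.4% higher and 8.96% lower of all genes tested). ImpE2, a secreted protein of everting discs, was already high in the larva and had 14210 and 12025 CPM at 18 h, against 2818 and 3516 CPM in L3 (log2 fold change 2.05 ± 0.44, adjusted p = 0.0047). By contrast ImpE1 had 16.1 and 22.1 CPM at 18 h, against 352 and 375 CPM in L3 (log2 fold change -4.26 ± 0.48, adjusted p = 5.5e-05). ImpE3, like ImpE1 an ecdysone-induced gene of the disc, had 2.73 and 4.36 CPM at 18 h, against 122 and 149.5 CPM in L3 (log2 fold change -5.32 ± 0.29, adjusted p = 5.2e-07). The protease Stubble (Sb), which acts in disc eversion, had 33.8 and 33.4 CPM at 18 h, against 129 and 116 CPM in L3 (log2 fold change -1.87 ± 0.30, adjusted p = 0.00076). At 36 h ImpE1 (2423 and 3364 CPM) and Sb (920 and 1221 CPM) were above their L3 levels, and ImpE3 (39.6 and 33.5 CPM) was below its own. ImpL2, an antagonist of insulin signalling, had 565 and 792 CPM at 18 h, against 100.04 and 78.1 CPM in L3 (log2 fold change 2.92 ± 0.34, adjusted p = 6.9e-05), with 61.9% of its exons overlapping another gene on the same strand. The pupal cuticle gene Edg78E had 16.7 and 16.2 CPM at 18 h, against 0.655 and 0.581 CPM in L3 (log2 fold change 4.65 ± 1.51, adjusted p = 0.038), and its call was lost when any 1 of the 4 libraries was left out. Without L3 library 1, 1 member was called higher, and ImpE2 lost its call.

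**Figure D4:**
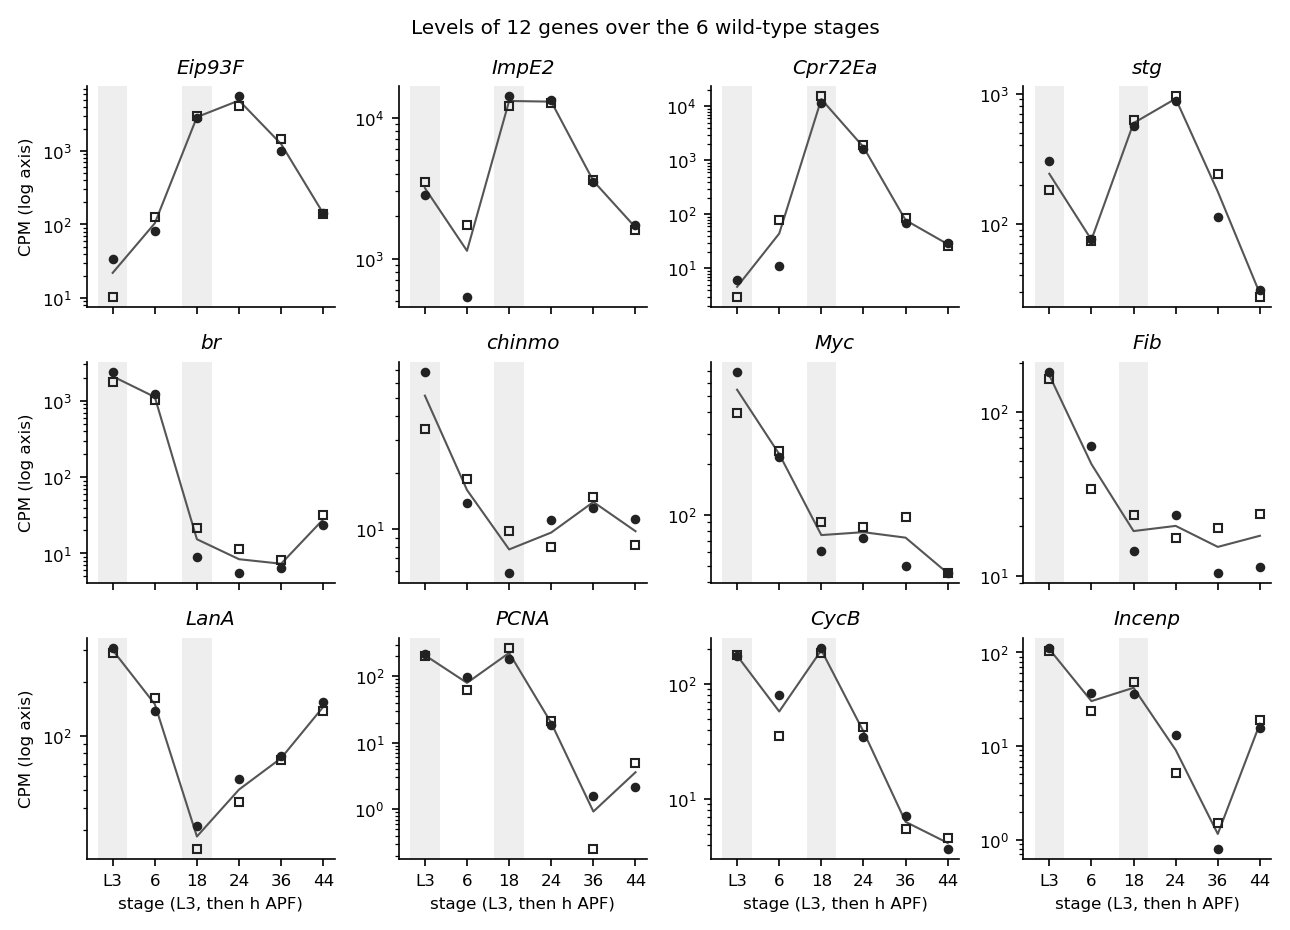
Level (CPM, log axis, scaled for each gene) of 12 genes in both libraries of each of 6 stages in time order, with library 1 as filled circles, library 2 as open squares, a line through the means and the compared stages shaded. Eip93F and Cpr72Ea are high at 18 h and low in L3, br, Myc and Fib the reverse, and PCNA and CycB are at like levels in both and lower at 6 h and 24 h.

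Cuticle genes were often among the rises. Of the Cpr family of chitin-binding cuticle proteins, 38 of 70 were tested. Of these, 16 rose (42.1%, against the 10.4% background) and 3 fell (7.89%, under the 8.96% of all genes tested). The median log2 fold change was 1.86, or 1.55 with genes at 0 counts set to their bound. Cpr97Ea had 177 and 178 CPM at 18 h, against 1.2 and 1.16 CPM in L3 (log2 fold change 7.19 ± 0.48, adjusted p = 1.2e-06). Cpr100A had 101 and 189 CPM at 18 h, against 0.437 and 0 CPM in L3 (log2 fold change 8.75 ± 1.19, adjusted p = 0.00024). Cpr62Bc had 17.2 and 13.1 CPM at 18 h, against 0.109 and 0 CPM in L3, a ratio of 200.4 on 1 count in L3 (counting interval 35.5 to 7955). Other Cpr genes were higher in L3 than at 18 h. Cpr49Ac had 2.25 and 6.16 CPM at 18 h, against 312 and 441 CPM in L3 (log2 fold change -6.62 ± 0.38, adjusted p = 5.3e-07). Cpr64Aa had 0 and 0.257 CPM at 18 h, against 39.5 and 22.4 CPM in L3, with a ratio of L3 over 18 h of 429 on 1 count at 18 h (counting interval 76.7 to 16998). The Cpr transcripts that were high thus differed between the stages. In the tested family, 3 members had no count in L3 and 2 had none at 18 h.

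The Osiris family, secretory pathway proteins of cuticle-making epithelia, had 20 of 22 members tested, of which 10 rose and 1 fell (50% and 5%, against 10.4% higher and 8.96% lower of all genes tested), with a median of 2.88 (1.76 with genes at 0 counts at their bound). Osi9 had 101 and 126 CPM at 18 h, against 9.39 and 8.42 CPM in L3 (log2 fold change 3.65 ± 0.52, adjusted p = 0.00033). Osi3 had 142 and 152 CPM at 18 h, against 8.08 and 9.0 CPM in L3 (log2 fold change 4.11 ± 0.72, adjusted p = 0.0014). Osi7 had 205 and 135 CPM at 18 h, against 5.57 and 7.26 CPM in L3 (log2 fold change 4.75 ± 0.93, adjusted p = 0.0029), and its call was lost without L3 library 1. The 10 rises were 6 without 18 h library 1 and 3 without L3 library 1. In the study's cuticle list, which is not independent evidence, 57 of 136 rose and 13 fell (median 1.27, or 1.0 with genes at 0 counts at their bound), with 29 higher without L3 library 1. The 57 higher and 13 lower genes make 41.9% and 9.56% of those tested, against 10.4% higher and 8.96% lower of all genes tested, so the lower share is near that background. Lower in that list was Vajk2, a member of the Vajk family, with 0.475 and 1.03 CPM at 18 h, against 35.3 and 25.3 CPM in L3 (log2 fold change -5.48 ± 0.94, adjusted p = 0.0013). Its relative Vajk3 had 0.475 and 0.513 CPM at 18 h, against 33 and 19.2 CPM in L3 (log2 fold change -5.7 ± 1.06, adjusted p = 0.002) and lost its call without 18 h library 1.

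Genes that make and shape chitin divided between the stages, with 11 of 26 higher and 4 lower (42.3% and 15.4%, against 10.4% higher and 8.96% lower of all genes tested). Cht5, a chitinase, had 399.8 and 448 CPM at 18 h, against 46.5 and 46.2 CPM in L3 (log2 fold change 3.19 ± 0.43, adjusted p = 0.0002). Cda5, a chitin deacetylase, had 68.9 and 63.7 CPM at 18 h, against 8.3 and 5.52 CPM in L3 (log2 fold change 3.21 ± 0.54, adjusted p = 0.0011). knk, which organises chitin, had 179 and 224 CPM at 18 h, against 91.7 and 79.5 CPM in L3 (log2 fold change 1.23 ± 0.21, adjusted p = 0.0012), with 64.0% of its exons overlapped by a gene on the other strand. obst-B, a chitin-binding protein, had 239 and 283 CPM at 18 h, against 93.3 and 73.7 CPM in L3 (log2 fold change 1.64 ± 0.38, adjusted p = 0.0071), and its call was lost without either L3 library. The synthase kkv was at the fold threshold, with 283 and 242 CPM at 18 h, against 129.6 and 132 CPM in L3 (log2 fold change 1.0 ± 0.30, adjusted p = 0.027), and lost its call when any 1 of the 4 libraries was left out, with scaling by library totals, without the filter on low counts and with the replicate block. Lower at 18 h were chitin deacetylases known from the trachea, verm with 38.4 and 29.8 CPM at 18 h, against 228 and 226 CPM in L3 (log2 fold change -2.73 ± 0.49, adjusted p = 0.0016) and serp with 14.9 and 14.9 CPM at 18 h, against 97.8 and 98.1 CPM in L3 (log2 fold change -2.71 ± 0.48, adjusted p = 0.0014). Trachea markers summed to 556 and 714 CPM at 18 h, against 1054 and 708 CPM in L3, with 1 of 5 tested called higher, none lower and no defining marker at 0, and their part in these 2 genes was not tested. Idgf4, a chitinase-like growth factor, had 2.14 and 4.11 CPM at 18 h, against 186 and 197 CPM in L3 (log2 fold change -6.04 ± 0.39, adjusted p = 1.0e-06). Its relative Idgf6 had 1.07 and 1.03 CPM at 18 h, against 11 and 12.2 CPM in L3 (log2 fold change -3.42 ± 0.42, adjusted p = 0.00011). The 11 rises were 7 without 18 h library 1, 7 without L3 library 1 and 6 without L3 library 2.

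Among genes that set wing regions, those called were mostly lower and included notum and hinge factors. Of 43 wing selector, axis and compartment genes, 10 fell and 1 rose (23.3% and 2.33%, against 8.96% lower and 10.4% higher of all genes tested), and 14 had their interval within 1 log2 unit, as had 40.1% of all genes tested. The posterior selector en had 61.8 and 56.7 CPM at 18 h, against 55.4 and 52 CPM in L3, and hh, the posterior signal, had 90.3 and 93.7 CPM at 18 h, against 95.8 and 73.7 CPM in L3, and neither was called. The wing cofactor of vg, sd, had 929 and 1057 CPM at 18 h, against 689 and 533 CPM in L3, below the fold threshold (log2 fold change 0.7, adjusted p = 0.031). Lower were tup, a LIM-homeodomain factor of the notum, with 1.3 and 1.28 CPM at 18 h, against 28.5 and 28.2 CPM in L3 (log2 fold change -4.42 ± 0.39, adjusted p = 6.9e-06), and tsh, a factor of proximal wing and trunk, with 35.4 and 38.2 CPM at 18 h, against 139.9 and 151 CPM in L3 (log2 fold change -1.98 ± 0.20, adjusted p = 2.5e-05). The Iroquois gene mirr had 26.2 and 43.4 CPM at 18 h, against 187 and 129.8 CPM in L3 (log2 fold change -2.2 ± 0.42, adjusted p = 0.0024). sob, an odd-skipped relative, had 2.73 and 2.57 CPM at 18 h, against 21.8 and 21.5 CPM in L3 (log2 fold change -3.01 ± 0.36, adjusted p = 9.1e-05). Of the 17 markers of the notum and peripodial layer, 13 fell and 1 rose (76.5% and 5.88%, against 8.96% lower and 10.4% higher of all genes tested). The notum selector pnr had 2.61 and 0.77 CPM at 18 h, against 22.6 and 20.03 CPM in L3 (log2 fold change -3.46 ± 0.38, adjusted p = 4.6e-05), the notum factor eyg had 7.83 and 11.3 CPM at 18 h, against 70.1 and 52.5 CPM in L3 (log2 fold change -2.72 ± 0.28, adjusted p = 2.8e-05). eya, of the eye disc network, had 1.3 and 1.54 CPM at 18 h, against 13.5 and 10.5 CPM in L3 (log2 fold change -3.1 ± 0.49, adjusted p = 0.00074). Whether fewer notum and peripodial cells were present in the 18 h wings was not tested. The 13 lower markers were 7 without 18 h library 1, and mirr lost its call without that library.

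Hox genes changed in opposite directions. Antp, the thoracic Hox gene of the second segment, had 47.1 and 62.9 CPM at 18 h, against 261 and 159 CPM in L3 (log2 fold change -1.94 ± 0.26, adjusted p = 0.0002), with 50.1% of its exons overlapping another gene on the same strand. Ubx, which specifies the haltere, had 19 and 11.8 CPM at 18 h, against 17.4 and 11 CPM in L3 and was not called. Of the 4 that could be tested, 2 rose (50%, against 10.4% of all genes tested). These, named after their values were seen, were abd-A, with 2.73 and 7.19 CPM at 18 h and no count in L3, and Scr, with 3.68 and 0.77 CPM at 18 h, against 0.218 and 0 CPM in L3. With any 1 of the 4 libraries left out, 1 of the 2 calls was left.

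Vein genes, which are laid out in the larva and refined in the pupa, included 6 higher and 2 lower of 23 (26.1% and 8.7%, against 10.4% higher and 8.96% lower of all genes tested), with a median of 0.12. The protease rho, which releases EGFR ligands in veins, had 44.8 and 35.4 CPM at 18 h, against 16.6 and 13.1 CPM in L3 (log2 fold change 1.42 ± 0.24, adjusted p = 0.001). Its relative ru had 5.81 and 6.16 CPM at 18 h, against 0.765 and 0.29 CPM in L3 (log2 fold change 3.21 ± 0.38, adjusted p = 8.5e-05). bs, the serum response factor of intervein cells, had 164 and 130.2 CPM at 18 h, against 53.6 and 59.8 CPM in L3 (log2 fold change 1.38 ± 0.26, adjusted p = 0.0021). net, another factor of intervein cells, had 42.7 and 30.04 CPM at 18 h, against 9.39 and 13.1 CPM in L3 (log2 fold change 1.74 ± 0.33, adjusted p = 0.0025). Both vein and intervein genes thus rose. The vein factor kni, which places the second vein in the disc, was lower, with 11.6 and 15.9 CPM at 18 h, against 63.9 and 39.8 CPM in L3 (log2 fold change -1.95 ± 0.33, adjusted p = 0.0012). The receptor Egfr itself had 207 and 152 CPM at 18 h, against 171 and 159 CPM in L3, with an interval of -0.47 to 0.71, and the ligand vn had 34 and 37 CPM at 18 h, against 36.3 and 35.7 CPM in L3, with an interval of -0.42 to 0.38. The call of net was lost without L3 library 1, and 1 lower gene was left without 18 h library 1.

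Among Dpp (BMP) pathway genes, 3 of 19 rose and 1 fell (15.8% and 5.26%, against 10.4% higher and 8.96% lower of all genes tested). The lower count was 2 without 18 h library 1, 18 h library 2 or L3 library 1 and 3 with scaling by library totals. The receptor tkv had 589 and 404 CPM at 18 h, against 201 and 231 CPM in L3 (log2 fold change 1.2 ± 0.24, adjusted p = 0.0032). Mad, its transcription factor, had 167 and 104 CPM at 18 h, against 62.7 and 56.6 CPM in L3 (log2 fold change 1.19 ± 0.22, adjusted p = 0.0023). The ligands dpp (41 and 39 CPM at 18 h, against 54.1 and 45.6 CPM in L3) and gbb (77.8 and 70.6 CPM at 18 h, against 103 and 97.5 CPM in L3) were not called. The protease tok, which frees BMP ligands for crossveins, was lower, with 43.2 and 41.1 CPM at 18 h, against 133 and 127 CPM in L3 (log2 fold change -1.62 ± 0.31, adjusted p = 0.0025). The 3 rises were 1 without 18 h library 1, and tkv was also lost without L3 library 1. In the Notch group, 1 of 23 rose and 3 fell (4.35% and 13%, against 10.4% higher and 8.96% lower of all genes tested). Su(H), the DNA-binding factor of the pathway, had 77.8 and 57.2 CPM at 18 h, against 17.1 and 24.4 CPM in L3 (log2 fold change 1.73 ± 0.25, adjusted p = 0.00041), while its Bearded family target E(spl)m4-BFM had 3.56 and 4.36 CPM at 18 h, against 19.8 and 22.6 CPM in L3 (log2 fold change -2.43 ± 0.37, adjusted p = 0.00077). The receptor N had 365 and 467 CPM at 18 h, against 901 and 538 CPM in L3 and the ligand Ser had 74.6 and 72.6 CPM at 18 h, against 115 and 109 CPM in L3, neither of which was called. Without L3 library 2, N was called lower (log2 fold change -1.12, adjusted p = 0.0465). The 3 lower Notch genes were 1 without 18 h library 1.

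Sensory organ genes had 6 higher and none lower of 17 (35.3% and 0%, against 10.4% higher and 8.96% lower of all genes tested). The prospero gene pros, a factor of sensory organ daughter cells, had 18.4 and 17.7 CPM at 18 h, against 1.42 and 0.871 CPM in L3 (log2 fold change 3.83 ± 0.32, adjusted p = 5.4e-06). scrt, a pan-neural zinc finger factor, had 21.7 and 24.4 CPM at 18 h, against 2.4 and 3.77 CPM in L3 (log2 fold change 2.98 ± 0.31, adjusted p = 3.4e-05). cpo, an RNA-binding protein of sensory precursors, had 196 and 219 CPM at 18 h, against 22.3 and 14.2 CPM in L3 (log2 fold change 3.48 ± 0.30, adjusted p = 6.0e-06). The proneural genes ac (22.9 and 26.4 CPM at 18 h, against 16.4 and 8.42 CPM in L3) and sc (29.3 and 28.5 CPM at 18 h, against 21.6 and 23.2 CPM in L3) were not called. Without L3 library 1, ac was called higher (log2 fold change 1.54, adjusted p = 0.0197). Neuron markers went the same way, with 7 of 13 higher (53.8%, against 10.4% of all genes tested) and none lower (median 2.08, or 1.44 with genes at 0 counts at their bound). Among these, fne, an ELAV family RNA-binding protein, had 64.8 and 70.3 CPM at 18 h, against 2.73 and 3.19 CPM in L3 (log2 fold change 4.53 ± 0.25, adjusted p = 5.2e-07). nSyb, the synaptic vesicle SNARE, had 8.42 and 7.19 CPM at 18 h, against 0.218 and 0.581 CPM in L3 (log2 fold change 4.51 ± 0.46, adjusted p = 2.5e-05). elav, the pan-neuronal RNA-binding protein, had 67.5 and 63.9 CPM at 18 h, against 41.1 and 29.6 CPM in L3, under the fold threshold (log2 fold change 0.88, adjusted p = 0.0082), and was called without L3 library 1 (log2 fold change 1.15, adjusted p = 0.0194). The summed neuron markers given above moved with these genes, and the part of neurons in the sensory group was not tested.

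Of 10 bristle and hair genes, 5 rose and 1 fell (50% and 10%, against 10.4% higher and 8.96% lower of all genes tested). The formin-like multiple wing hairs gene mwh, which limits each cell to a single hair, had 11.6 and 7.7 CPM at 18 h, against 1.53 and 1.74 CPM in L3 (log2 fold change 2.61 ± 0.41, adjusted p = 0.00068). sha, which acts in hair outgrowth, had 17.1 and 12.3 CPM at 18 h, against 0.328 and 0.29 CPM in L3 (log2 fold change 5.45 ± 0.58, adjusted p = 3.7e-05). The zona pellucida protein dyl, which links hairs and bristles to the apical matrix, had 30.1 and 18.7 CPM at 18 h, against 0.983 and 0.581 CPM in L3 (log2 fold change 4.81 ± 0.66, adjusted p = 0.00026). Of 13 zona pellucida genes, 4 rose (30.8%, against 10.4% of all genes tested) and none fell. Rab23, a planar polarity GTPase, had 125 and 98.6 CPM at 18 h, against 40.1 and 40.1 CPM in L3 (log2 fold change 1.48 ± 0.33, adjusted p = 0.0062). Of 15 planar cell polarity genes, 1 rose and 1 fell (6.67% each, against 10.4% higher and 8.96% lower of all genes tested). Not called were fz, with 118 and 158 CPM at 18 h, against 197 and 129 CPM in L3, and Vang, with 196 and 198 CPM at 18 h, against 194 and 150.4 CPM in L3. Also uncalled were dsh (40.2 and 46 CPM at 18 h, against 75.5 and 63.3 CPM in L3) and pk (42.7 and 47.2 CPM at 18 h, against 49.3 and 44.4 CPM in L3). The bristle rises were 3 without L3 library 1, the zona pellucida rises were 2 without 18 h library 1 or L3 library 1, and Rab23 lost its call without 18 h library 1 or without L3 library 1.

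Of 17 basement membrane and protease genes, 8 were lower and 3 higher in the pupal wing (47.1% and 17.6%, against 8.96% lower and 10.4% higher of all genes tested). The collagen IV chain vkg had 1.9 and 1.28 CPM at 18 h, against 33.9 and 20.9 CPM in L3 (log2 fold change -4.04 ± 0.32, adjusted p = 3.8e-06). Its partner chain Col4a1 had 1.9 and 4.36 CPM at 18 h, against 49.5 and 41.5 CPM in L3 (log2 fold change -4.0 ± 0.31, adjusted p = 2.6e-06). LanA, the laminin alpha chain, had 31.8 and 23.6 CPM at 18 h, against 308 and 289 CPM in L3 (log2 fold change -3.42 ± 0.23, adjusted p = 1.3e-06). Mp, a collagen XV and XVIII relative, had 1.54 and 3.08 CPM at 18 h, against 49.4 and 38 CPM in L3 (log2 fold change -4.36 ± 0.38, adjusted p = 6.5e-06). Proteases of the matrix were among the rises. Mmp1, a matrix metalloproteinase, had 157 and 139.9 CPM at 18 h, against 40.8 and 47.6 CPM in L3 (log2 fold change 1.75 ± 0.26, adjusted p = 0.00042). Np, a matriptase-like protease, had 105 and 92.7 CPM at 18 h, against 35.2 and 32.2 CPM in L3 (log2 fold change 1.55 ± 0.32, adjusted p = 0.0037). The other laminin alpha chain, wb, was also higher, with 147 and 166 CPM at 18 h, against 59.5 and 52.8 CPM in L3 (log2 fold change 1.47 ± 0.25, adjusted p = 0.0011). Hemocytes and fat body are known sources of collagen IV. Of 13 hemocyte markers, 6 fell and 3 rose (1 rose without 18 h library 1 or either L3 library), and the blood cell protein Hml had 0.593 and 0.77 CPM at 18 h, against 11.7 and 11.3 CPM in L3 (log2 fold change -4.08 ± 0.60, adjusted p = 0.00042). The 6 lower and 3 higher hemocyte markers make 46.2% and 23.1% of those tested, against 8.96% and 10.4% of all genes. The crystal cell enzyme PPO2 had 0.119 and 0 CPM at 18 h, against 18.7 and 15.1 CPM in L3, with a ratio of L3 over 18 h of 218 on 1 count at 18 h (counting interval 38.7 to 8653). The summed hemocyte markers given above overlapped between the stages, the summed fat body markers were higher at 18 h, and the part of either tissue in these levels was not tested.

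Of 24 adherens junction and apical polarity genes, 3 rose (12.5%, against 10.4%), none fell and 14 stayed within 1 log2 unit. E-cadherin (shg) had 418 and 338 CPM at 18 h, against 414 and 337 CPM in L3, with an interval of -0.54 to 0.56. By contrast the neural cadherin CadN had 334 and 304 CPM at 18 h, against 49.9 and 34.5 CPM in L3 (log2 fold change 2.9 ± 0.25, adjusted p = 6.3e-06). Septate junction genes had 2 of 24 higher and 1 lower (8.33% and 4.17%, against 10.4% higher and 8.96% lower of all genes tested), and none was lower without 18 h library 1, 18 h library 2 or L3 library 1 or with DESeq2. The 2 higher were Lac, an immunoglobulin domain protein, at 860.4 and 677 CPM at 18 h, against 313 and 318 CPM in L3 (log2 fold change 1.28 ± 0.22, adjusted p = 0.0012) and the transmembrane protein M6 at 166 and 128 CPM at 18 h, against 57.4 and 59.2 CPM in L3 (log2 fold change 1.34 ± 0.25, adjusted p = 0.0022), and 4 were higher without 18 h library 2. In the Hippo pathway, which restrains growth, 1 of 18 rose and 1 fell (5.56% and 5.56%, against 10.4% higher and 8.96% lower of all genes tested). The activator kibra, itself a target of Yki, had 208 and 215 CPM at 18 h, against 59.96 and 40.1 CPM in L3 (log2 fold change 2.07 ± 0.26, adjusted p = 0.00013). yki, the growth-promoting coactivator, had 66.6 and 58 CPM at 18 h, against 66.7 and 61.5 CPM in L3, with an interval of -0.42 to 0.34. Tgi, a corepressor of the pathway, had 39.4 and 37 CPM at 18 h, against 81.3 and 75.2 CPM in L3 (log2 fold change -1.03 ± 0.20, adjusted p = 0.0023) and lost its call without 18 h library 2 or L3 library 1.

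Genes of ribosome production were lower in the pupal wing, as was their regulator Myc. Myc (FBgn0262656, X:3373159-3391697, dm6), the main driver of ribosome production in growing cells, had 61.5 and 90.1 CPM at 18 h, against 694 and 395 CPM in L3 (log2 fold change -2.85 ± 0.34, adjusted p = 9.9e-05), although 40.9% of its exons are overlapped by a gene on the other strand. Ribosome biogenesis genes fell in 17 of 24 cases (70.8%, against the 8.96% background), none was called higher, all 24 had a log2 fold change below 0 and the median was -1.44. Fib, the rRNA methyltransferase fibrillarin, had 14.1 and 23.4 CPM at 18 h, against 176 and 159.97 CPM in L3 (log2 fold change -3.19 ± 0.41, adjusted p = 0.00017). nop5, a core box C/D snoRNP protein, had 72.5 and 106 CPM at 18 h, against 472 and 364 CPM in L3 (log2 fold change -2.24 ± 0.32, adjusted p = 0.00036). Nopp140, a nucleolar chaperone, had 38.3 and 38.5 CPM at 18 h, against 171 and 177 CPM in L3 (log2 fold change -2.18 ± 0.29, adjusted p = 0.00021). The exosome subunit Rrp4 had 4.98 and 5.39 CPM at 18 h, against 30.1 and 25.3 CPM in L3 (log2 fold change -2.43 ± 0.33, adjusted p = 0.00022). The large subunit of RNA polymerase I, Polr1A, had 23.6 and 18.7 CPM at 18 h, against 53.3 and 64.5 CPM in L3 (log2 fold change -1.46 ± 0.28, adjusted p = 0.0024). These genes were lower in both 18 h libraries than in either L3 library, as were all 777 genes called lower. None of the 24 promoters held an E2F-type site of the kinds listed above.

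Of 75 cytosolic ribosomal protein genes, 4 fell (5.33%, under the 8.96% of all genes tested), none was called higher and the median was -0.36. Within 1 log2 unit of no change were 51 of them, beside 40.1% of all genes tested. The largest change was in RpL22, with 178 and 161 CPM at 18 h, against 524 and 514 CPM in L3 (log2 fold change -1.62 ± 0.25, adjusted p = 0.00059). Without L3 library 1, 2 of these were lower. Among 70 mitochondrial ribosomal protein genes, 2 fell (median -0.46), with 0 to 6 lower when 1 library was left out (0 without 18 h library 1 or L3 library 1, 6 without 18 h library 2 and 1 without L3 library 2). The 2 lower mitochondrial ribosomal protein genes make 2.86%, under the 8.96% of all genes tested. TOR and insulin pathway genes had 3 higher and 3 lower of 22 (13.6% each, against 10.4% higher and 8.96% lower of all genes tested). The stress-induced TOR inhibitors rose: Sesn had 33.9 and 32.1 CPM at 18 h, against 3.39 and 2.9 CPM in L3 (log2 fold change 3.35 ± 0.23, adjusted p = 1.3e-06), with 65.1% of its exons overlapping another gene on the same strand, and chrb (charybde) had 1399 and 1646 CPM at 18 h, against 531 and 365 CPM in L3 (log2 fold change 1.76 ± 0.33, adjusted p = 0.0023). The amino acid transporter path, which promotes growth, was lower, with 42.9 and 33.4 CPM at 18 h, against 97.3 and 102 CPM in L3 (log2 fold change -1.38 ± 0.22, adjusted p = 0.00071). The kinase Akt had 187 and 181 CPM at 18 h, against 131 and 131 CPM in L3 and was not called.

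Of 21 glycolysis genes, 11 were lower (52.4%, against the 8.96% background) and 1 higher, with a median of -1.10. PyK, pyruvate kinase, had 51.3 and 43.9 CPM at 18 h, against 172 and 158 CPM in L3 (log2 fold change -1.79 ± 0.27, adjusted p = 0.00052). Tpi, triose phosphate isomerase, had 28 and 30.04 CPM at 18 h, against 118 and 97.3 CPM in L3 (log2 fold change -1.9 ± 0.25, adjusted p = 0.00018). Glyp, which breaks down glycogen, had 15.9 and 12.3 CPM at 18 h, against 101 and 94.1 CPM in L3 (log2 fold change -2.77 ± 0.20, adjusted p = 2.0e-06). Ldh, lactate dehydrogenase, had 2.25 and 1.28 CPM at 18 h, against 11.2 and 14.5 CPM in L3 (log2 fold change -2.72 ± 0.53, adjusted p = 0.0028). The 1 that rose was Pdk, which closes the entry of pyruvate into the mitochondrial cycle, with 105 and 123 CPM at 18 h, against 43 and 29.6 CPM in L3 (log2 fold change 1.63 ± 0.30, adjusted p = 0.002). Nuclear oxidative phosphorylation genes had 5 of 68 lower, none called higher and 52 within 1 log2 unit (median -0.27), with 1 lower without either 18 h library or L3 library 1 and 2 lower without L3 library 2. The 5 lower oxidative phosphorylation genes make 7.35% of those tested, against 8.96% of all genes. SdhA, of succinate dehydrogenase, had 36.7 and 28.2 CPM at 18 h, against 89.1 and 87.4 CPM in L3 (log2 fold change -1.43 ± 0.28, adjusted p = 0.0025). The fatty acid desaturase Desat1 had 76 and 70.6 CPM at 18 h, against 199 and 177 CPM in L3 (log2 fold change -1.35 ± 0.20, adjusted p = 0.00045). Of 34 proteasome subunits, 30 stayed within 1 log2 unit, beside 40.1% of all genes tested.

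Of 16 heat shock genes, 7 fell (43.75%, against 8.96% of all genes tested) and none rose (median -0.87). The inducible chaperone Hsp68 had 26.5 and 18.7 CPM at 18 h, against 132 and 329 CPM in L3 (log2 fold change -3.33 ± 0.44, adjusted p = 0.00018), with the L3 libraries apart from each other. Hsp60A, the mitochondrial chaperonin, had 36.5 and 36.5 CPM at 18 h, against 224 and 202 CPM in L3 (log2 fold change -2.54 ± 0.44, adjusted p = 0.0013). The constitutive chaperone Hsc70-4 had 924 and 794 CPM at 18 h, against 2636 and 2577 CPM in L3 (log2 fold change -1.6 ± 0.26, adjusted p = 0.00091). Among the small chaperones, which ecdysone also induces, Hsp23 had 3038 and 3692 CPM at 18 h, against 2339.8 and 2669 CPM in L3, and Hsp27 had 5141 and 8814 CPM at 18 h, against 5552 and 4506 CPM in L3, neither of which was called. In the JNK and wound group 4 of 21 rose and 3 fell (19% and 14.3%, against 10.4% higher and 8.96% lower of all genes tested). kay, the fly Fos, had 20.6 and 20.8 CPM at 18 h, against 74.6 and 69.97 CPM in L3 (log2 fold change -1.8 ± 0.27, adjusted p = 0.0005). upd1, a ligand of the JAK/STAT pathway, had 18 and 16.4 CPM at 18 h, against 3.6 and 4.65 CPM in L3 (log2 fold change 2.11 ± 0.28, adjusted p = 0.00018). The JNK kinase kinase hep had 42.5 and 54.4 CPM at 18 h, against 128 and 91.5 CPM in L3 (log2 fold change -1.19 ± 0.31, adjusted p = 0.014). The TNF ligand egr had 22.5 and 20.3 CPM at 18 h, against 7.75 and 8.71 CPM in L3 (log2 fold change 1.4 ± 0.32, adjusted p = 0.007), and both calls were lost without 18 h library 1 or L3 library 1. The JNK bsk had 93.2 and 101 CPM at 18 h, against 66.3 and 69.97 CPM in L3 and its target puc had 33 and 26.4 CPM at 18 h, against 34.5 and 25.5 CPM in L3, neither of which was called.

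Apoptosis genes had 3 of 17 higher (17.6%, against 10.4% of all genes tested), namely grim, skl and egr, none of which was called without L3 library 1. The cell death gene grim had 3.2 and 3.85 CPM at 18 h, against 0 and 0 CPM in L3, at least 5.88-fold higher against the floor of 3 counts per library. The inhibitor Diap1 had 375 and 301 CPM at 18 h, against 208 and 233 CPM in L3, under the fold threshold (log2 fold change 0.62, adjusted p = 0.048), and the death activator hid had 268 and 280.3 CPM at 18 h, against 185 and 149 CPM in L3 and was not called.

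Of 21 myoblast and muscle markers, 5 were higher and 4 lower at 18 h (23.8% and 19.0%, against 10.4% higher and 8.96% lower of all genes tested). Lower were those of the undifferentiated adult myoblast: twi, the mesoderm factor, with 1.66 and 2.05 CPM at 18 h, against 17 and 15.4 CPM in L3 (log2 fold change -3.15 ± 0.37, adjusted p = 8.5e-05), and zfh1, a repressor of differentiation, with 8.66 and 10.3 CPM at 18 h, against 40.6 and 32.8 CPM in L3 (log2 fold change -1.98 ± 0.26, adjusted p = 0.00018). The FGF receptor htl had 3.68 and 2.31 CPM at 18 h, against 13.3 and 20.9 CPM in L3 (log2 fold change -2.41 ± 0.38, adjusted p = 0.00068). Higher were genes of fusing and differentiated muscle: kirre, a cell fusion receptor, with 135 and 186 CPM at 18 h, against 58.2 and 39.2 CPM in L3 (log2 fold change 1.7 ± 0.27, adjusted p = 0.00075), and sls, the fly titin, with 152 and 193 CPM at 18 h, against 51.6 and 36.9 CPM in L3 (log2 fold change 1.96 ± 0.32, adjusted p = 0.00081). The light chain Mlc2 had 59.9 and 81.9 CPM at 18 h, against 12.5 and 14.5 CPM in L3 (log2 fold change 2.4 ± 0.55, adjusted p = 0.0068), and its call was lost without L3 library 1, which left 2 of the 5 rises. Among actins, the cytoplasmic Act5C had 5391 and 5029.7 CPM at 18 h, against 4974 and 5145 CPM in L3, with an interval of -0.50 to 0.58. The markers together summed to 895 and 948 CPM at 18 h, against 630 and 592 CPM in L3.

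Fat body genes were low but above their larval level. Lsp2, a larval storage protein, had 71.9 and 40.05 CPM at 18 h, against 0.983 and 2.03 CPM in L3 (log2 fold change 5.4 ± 0.85, adjusted p = 0.00067), with 84.6% of its exons overlapped by a gene on the other strand. Fbp2, a fat body protein, had 15.7 and 15.7 CPM at 18 h, against 1.2 and 0.581 CPM in L3 (log2 fold change 3.92 ± 0.46, adjusted p = 8.5e-05). The lipoprotein apolpp had 25.4 and 17.2 CPM at 18 h, against 1.09 and 0.871 CPM in L3 (log2 fold change 4.37 ± 0.90, adjusted p = 0.0039). The 7 higher markers were 3 without L3 library 1, and apolpp was among those lost.

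**Figure D5:**
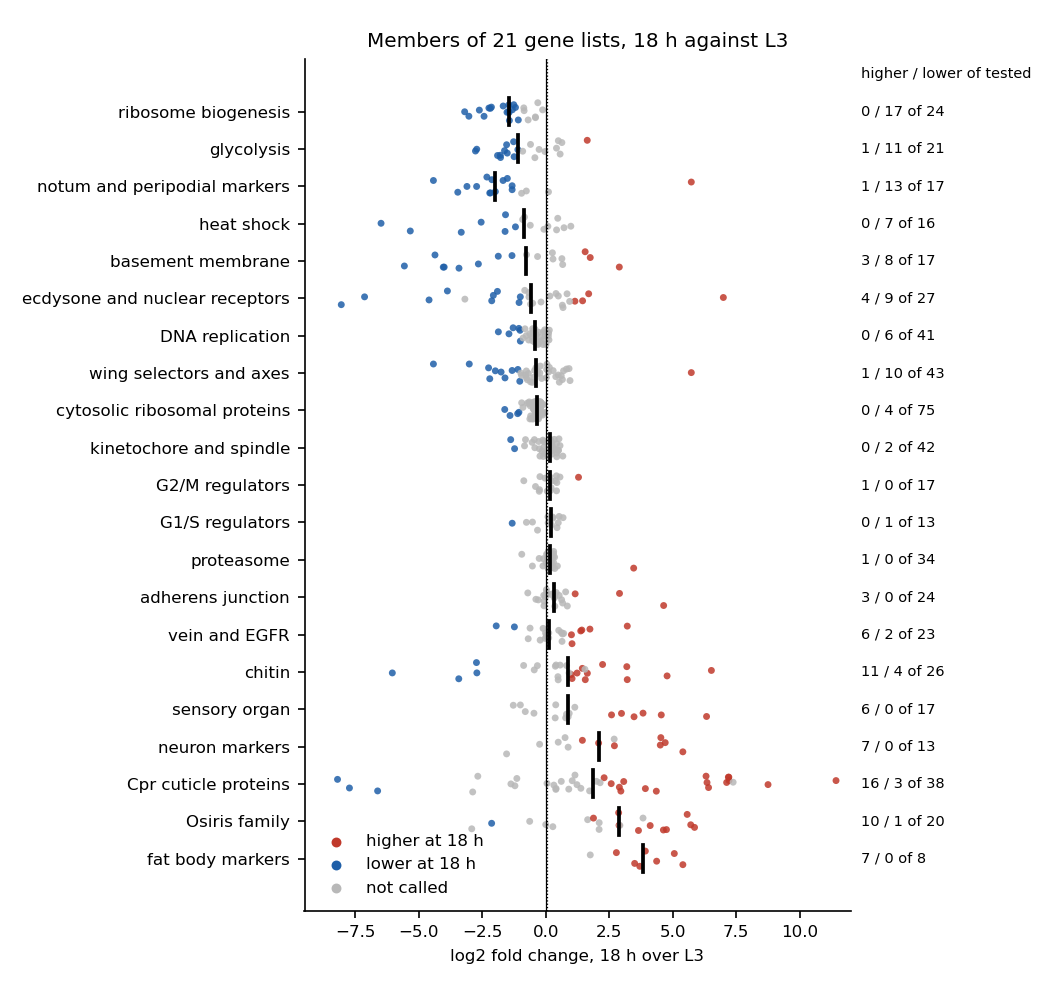
Log2 fold change (18 h over L3) of each tested member of 21 gene lists, with a bar at the list's median, a dotted line at the median of all genes (0.05) and the counts called higher and lower at the right. Ribosome biogenesis (0 higher and 17 lower of 24) lies to the left, the G1/S, G2/M and mitotic lists lie around 0, and cuticle, Osiris and fat body lists lie to the right, where genes with no L3 count have fitted values that are not bounds.

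The same genes were followed in the other wild-type stages. The 898 higher genes cannot have their highest mean in L3, and it was at 6 h for 107, at 18 h for 154, at 24 h for 138, at 36 h for 182 and at 44 h for 317. The 777 lower genes cannot have it at 18 h, and it was in L3 for 524, at 6 h for 116, at 24 h for 3, at 36 h for 68 and at 44 h for 66. At 6 h br had 1227 and 1015 CPM, Cpr49Ac had 20.7 and 25.6 CPM and Myc had 219 and 236 CPM. Each of these genes was already under both of its L3 values. Eip93F had 81.7 and 126 CPM at 6 h, and its level was higher again at 24 h, with 5602 and 4156 CPM. Cpr72Ea had 11.1 and 77.3 CPM at 6 h and 1638 and 1890 CPM at 24 h, so that its high point was at 18 h. CadN had 520 and 462 CPM at 24 h and 571 and 695 CPM at 36 h, both above its 18 h level, and 160.1 and 134 CPM at 44 h, below it.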

How the data were processed

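RNA was sequenced from wild-type female wings with a stranded mRNA kit. The authors aligned the reads with STAR to the dm6 genome and counted those on each gene with HTSeq; the versions, the strand setting and the annotation release are not given in the sources used here, so counts of genes that overlap another gene are uncertain. The deposited files hold whole-number counts for each library, without normalization or pooling. The lines of HTSeq that name no gene were left out, and reads on no gene were 6.34% to 10.8% of uniquely aligned reads in the 4 compared libraries.

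Libraries were grouped by their labels. In R 4.3.3 with edgeR 4.0.16, the 12 wild-type libraries were fitted with 1 coefficient per stage and no replicate block, after a filter on low counts (minimum count 10, minimum total 15) and TMM scaling. The contrast of 18 h with L3 was tested by quasi-likelihood (F-test), p-values were adjusted by Benjamini-Hochberg, and genes were called as the report states. The common biological coefficient of variation across the 12 libraries was 20.25%. Values after ± are standard errors, and CPM are per library. Symbols, exons and promoters came from an annotation of the same genome that matched 17253 of 17559 genes. The procedure was tested on simulated counts.

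Genes were named by rule: in each direction the 10 largest called changes where every library of the higher stage had 50 counts or more, key members of each gene list, up to 4 called members per list and direction with those counts, and the 5 largest called changes of the study's cell cycle list per direction. Not every gene that this rule picks is described, and Gapdh1, salr and Hsp70Bc are among those left out. Genes named outside the rule are said to be chosen after their values were seen. The study's cell cycle and cuticle lists were read from its supplement. Members, lists and this rule were chosen with earlier results of these data known. The alternatives were DESeq2 1.42.0, RLE scaling, library totals, a filter of 1 count, the replicate block, only the compared libraries, no 6 h libraries, and each library left out.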

Additional observations from a re-analysis of the deposited data

How the results depend on the processing

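Numbers of called genes moved most when 1 library was left out: 459 to 807 were higher, 402 to 669 lower and 861 to 1382 called in all, and 77 to 92 cell cycle genes had their interval within 1 log2 unit. Of the 898 higher genes, 441 were called again without L3 library 1 and 552 without 18 h library 1. Where 1 library of a stage was left, it was assumed to vary like the other stages. Under the other alternatives the counts stayed within 1.5 times the reported ones. DESeq2 gave 886 higher and 694 lower, RLE scaling 935 and 736, library totals 834 and 911, a filter of 1 count 1069 and 855, only the compared libraries 838 and 816, and the fit without the 6 h libraries 1024 and 819. Cell cycle genes within 1 log2 unit numbered 167 with only the compared libraries and 154 without the 6 h libraries, beside 125 in the reported fit and 109 with DESeq2. The median over all genes ran from -0.02 with library totals to 0.08 with DESeq2. With the replicate block 904 were higher, 799 lower and 124 cell cycle genes within 1 log2 unit. Same-numbered 18 h and L3 libraries did not deviate together (correlation -0.157), so the numbers were not taken to pair them, and a crossed pairing, added after the data were seen, gave 884 higher and 772 lower. In the Cpr family, 6 rather than 3 genes were lower with only the compared libraries. The log2 fold change of the roX1 transcript (lncRNA:roX1, -0.43 over all libraries) was 3.09 without L3 library 1 and -1.34 without L3 library 2. Depth limits genes near the floor of 3 counts.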

Other observations

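The gene with the highest level among those called was bnb, chosen after its values were seen, which had 32993 and 25728 CPM at 18 h, against 567 and 405 CPM in L3 (log2 fold change 5.92 ± 0.42, adjusted p = 1.8e-06). Immune peptide genes were close to the floor in the larval wing, and 9 of 27 passed the filter. Of these, 5 rose (55.6%, against 10.4% of all genes tested) and none fell (median 2.68, or 1.42 with genes at 0 counts at their bound). Def (defensin) had 6.17 and 8.73 CPM at 18 h, against 0.655 and 2.03 CPM in L3, and was named after its values were seen. The 5 rises were 2 without 18 h library 1, 18 h library 2 or L3 library 2 and 0 without L3 library 1, and fat body markers, the fat body being the main source of such peptides, were also higher at 18 h. Whether fat body carried over into the 18 h wings was not tested.

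Integrin adhesion genes, which join the dorsal and ventral wing layers, were mostly uncalled, with 1 of 22 higher and none lower (4.55% and 0%, against 10.4% higher and 8.96% lower of all genes tested). The integrin beta chain mys had 189 and 139 CPM at 18 h, against 124 and 126 CPM in L3, and the alpha chain if had 70.8 and 62.9 CPM at 18 h, against 58.4 and 56.6 CPM in L3. Of 6 actin genes, 2 rose (Act88F and Act87E), with 0 to 2 higher when 1 library was left out, 0 of them without L3 library 1 and 1 without 18 h library 2 or L3 library 2. The 2 actin rises make 33.3% of those tested, against 10.4% of all genes. The tubulin alphaTub85E, known from muscle and testis, had 5.81 and 8.98 CPM at 18 h, against 0.437 and 0.290 CPM in L3 (log2 fold change 4.10 ± 0.50, adjusted p = 0.00010), while alphaTub84B, the ubiquitous form, had 2238 and 2164 CPM at 18 h, against 3112 and 3137 CPM in L3, and was not called.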
